A study of Chlorella sorokiniana with 6 samples.

Results

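Of the 18310 transcripts of the green microalga Chlorella sorokiniana in the count table, 10541 carry no assigned function, and 87 of these form the set described here. They are the transcripts of BIN 35, the "not assigned" class of the MapMan ontology, whose levels were furthest apart between mixotrophic and normal cultures. Levels are given as CPM, the count of a transcript scaled to a total of 1000000 in its library. A transcript was taken where the lowest library of either condition lay at least 2 above the highest library of the other condition on the scale log2(CPM + 1). This distance, called the gap, is positive where mixotrophic libraries were higher. The gap was read from all 6 libraries, so the difference between the conditions chose the set and is described here without a test.

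Mixotrophic cultures received 2% glucose and grew for 7 days at a light intensity of 100 µmol photons. Normal cultures grew for the same time without added glucose at 10 µmol photons. Both intensities are rates, which the methods print per metre and per second. The cultures of both conditions came from pre-cultures in Bold's Basal Medium at 27 °C, shaken at 30 rpm, which were divided into a flask for each condition. Light and glucose were changed together, so their effects cannot be told apart. There were 3 libraries of total RNA per condition, all under continuous light. The study's methods name the strain NIES-2168 for every culture, whereas the labels list a different number for each library, NIES-2168 to NIES-2173.

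An unassigned transcript is a predicted gene for which the annotation pipeline found no functional class. In algae such genes include lineage-specific genes without known relatives, fast-evolving proteins, and gene predictions that may not encode a protein at all. Here the sequences came from a de novo assembly made with Trinity, which joins reads into contigs and gathers contigs that share sequence, such as splice forms, allelic copies or close paralogs, into components. A contig may carry several predicted genes, so the component and the contig show which transcripts were assembled together.

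Total counts were 4444858, 3987717 and 3527337 in mixotrophic replicates 1 to 3 and 3560221, 2535461 and 3172204 in normal replicates 1 to 3. At these depths 3 counts correspond to 0.675 to 1.18 CPM. Normal replicate 1 stood apart from the other normal libraries. The chi-square of its counts against normal replicates 2 and 3 was 53.8 and 54.6 times its degrees of freedom, while that between normal replicates 2 and 3 was 1.68. Among mixotrophic libraries the same ratio was 5.58 and 7.58 for the pairs with replicate 1 and 1.47 for replicates 2 and 3. Every pair differed by more than sampling noise, and all 6 libraries were kept as separate samples. The spread between libraries is the error given here.

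Of the 87 transcripts, 62 (71.3%) were higher and 25 (28.7%) lower in mixotrophic than in normal cultures. As a share of all BIN 35 transcripts these were 0.588% higher and 0.237% lower. The same rule took 23 higher (0.296%) and 18 lower (0.232%) of the 7769 transcripts with another BIN, and 0.464% higher and 0.235% lower of the whole table. Without normal replicate 1 the rule took 284 BIN 35 transcripts, 146 higher and 138 lower, among them all 87. Without mixotrophic replicate 1 the lower transcripts numbered 41. Leaving out a library can only widen a gap, so the set can grow but not lose members in this way.

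To pass, a transcript needed at least 3 CPM in a library, which 6997 of the 10541 BIN 35 transcripts reached, whereas 2766 had no count at all. All 87 passed edgeR's filter on low counts, as did 6719 BIN 35 transcripts in all. Mean levels in the condition where a transcript was high ranged between 10.0 and 1580 CPM, with a median of 75.5 CPM. Mean levels in the other condition ranged between 0.189 and 221 CPM, with a median of 6.69 CPM. In the fit of edgeR across all transcripts, log2 fold changes of mixotrophic over normal lay between 2.08 and 5.45 for the 62 higher transcripts (median 3.32) and between -6.53 and -2.53 for the 25 lower ones (median -3.56). The value of -6.53 belongs to g1179, which had 2 counts in all mixotrophic libraries together, so its size depends on the prior count of the fit.

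**Figure D1:**
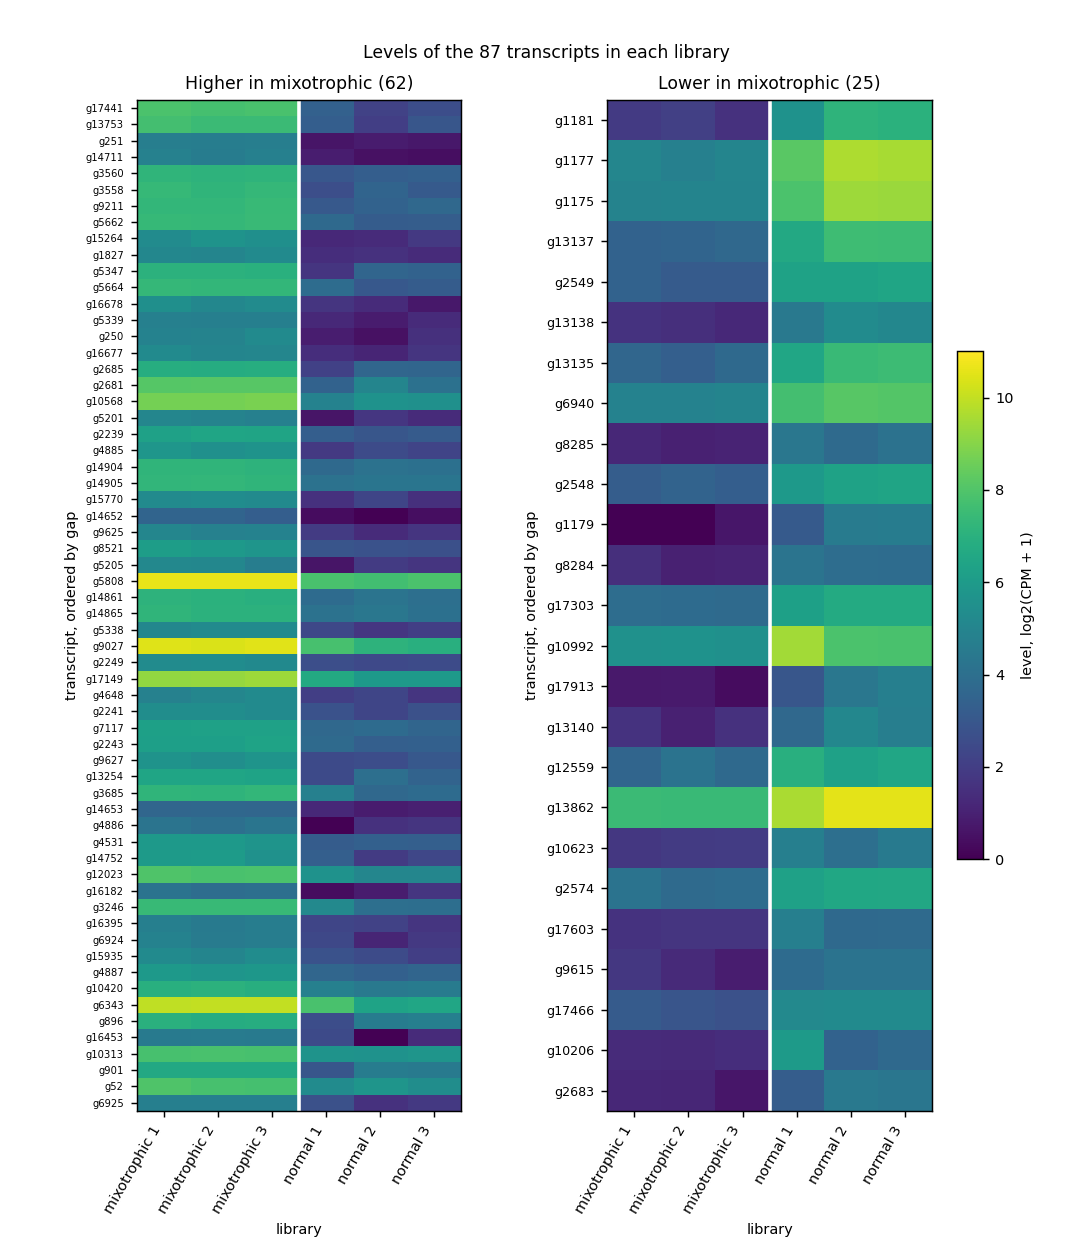
Level of each of the 87 transcripts, as log2(CPM + 1), in the 3 mixotrophic and the 3 normal libraries, ordered by the gap between the conditions. The 62 transcripts at left were higher and the 25 at right lower in mixotrophic cultures, and in each row the colour changes at the white line between the conditions.

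Together the 62 higher transcripts took 1.01%, 0.991% and 1.01% of the counts of the mixotrophic libraries, against 0.132%, 0.106% and 0.107% in normal libraries. The lower transcripts took 0.0427%, 0.0411% and 0.0414% in mixotrophic libraries, against 0.314%, 0.467% and 0.460% in normal libraries. In a culture, more cells that hold a transcript and more of it per cell cannot be told apart, and every level is a share of the counts of its library.

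**Figure D2:**
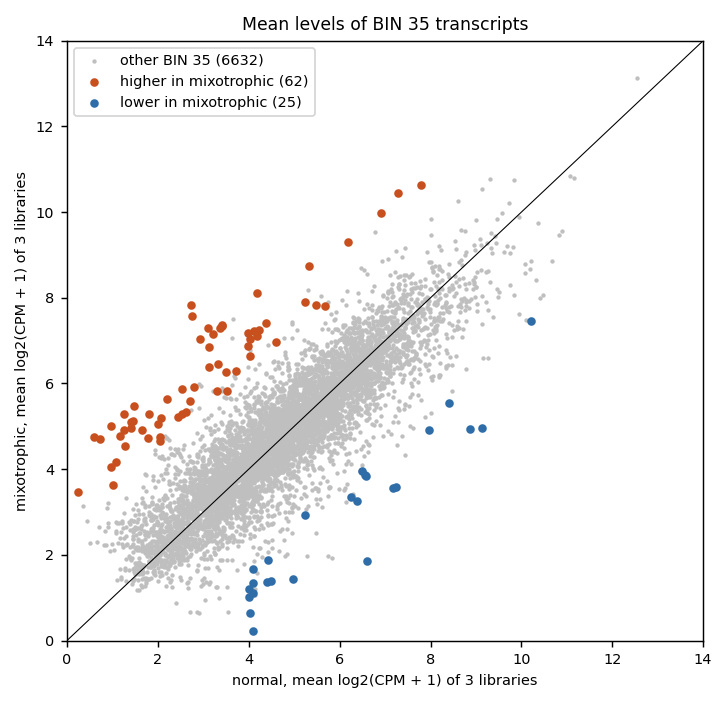
Mean log2(CPM + 1) of 3 mixotrophic libraries against that of 3 normal libraries for BIN 35 transcripts that passed the filter on low counts, with 6632 other transcripts in grey. The 62 higher (orange) and 25 lower (blue) transcripts lie at the edges of the cloud from low to high levels, and the diagonal marks equal levels.

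Descriptive text was scarce in the set. The table divides BIN 35 into a class named unknown and a class named no ontology. Of the 87 transcripts, 85 were in the unknown class, which holds 9888, and 2 in the no ontology class, which holds 653. For 59 the text read that no hits were found (67.8%, against 55.9% of all BIN 35 transcripts), for 26 it was empty (29.9%, against 29.2%), and for 2 it named a relative (2.30%, against 14.6%). Both transcripts with a named relative were higher in mixotrophic cultures. Both belonged to the redox group of keywords, which holds 133 BIN 35 transcripts, where 1537 have a named relative. Only these 2 had text in which keywords could be found. That none of the 87 fell in another group therefore says nothing of their functions. The other groups cover transport, kinases, nucleic acid binding, protein repeats, hydrolases, calcium, chaperones and transferases. The copy of the table used here had 35 BIN 35 descriptions removed, none of them in the 87.

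The first of these, g14752, resembles an Arabidopsis protein of the thioredoxin superfamily with the domain of GILT, a thiol reductase that in animals reduces disulfide bonds of proteins in the lysosome. The Arabidopsis protein is placed in the vacuole. Its level was 62.5, 64.2 and 46.8 CPM in mixotrophic replicates 1 to 3, against 8.99, 2.76 and 4.10 CPM in normal replicates 1 to 3. Normal replicate 1 was the highest of the normal libraries and still far below every mixotrophic one, and the means differed 10.9-fold (edgeR log2 fold change 3.35 ± 0.40, SE).

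The second, g10420, resembles the catalytic LigB subunit of aromatic ring-opening dioxygenases, enzymes that cleave the ring of catechol-like compounds with oxygen and iron, and has a hit in the green alga Chlamydomonas. Its level was 120.1, 134 and 119 CPM in mixotrophic cultures, against 26.7, 20.5 and 23.01 CPM in normal cultures. The 3 values of either condition lay close together. Its 5.31-fold difference (log2 fold change 2.34 ± 0.13) was among the smaller ones of the set.

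The largest gap was that of g17441, for which no hits were found. It held 235, 215 and 227 CPM in mixotrophic libraries, against 9.55, 3.55 and 5.04 CPM in normal libraries, a gap of 4.36. Its mean was 37.3-fold higher in mixotrophic cultures, and normal replicate 1 held the highest of the normal values. The next, g13753, had empty text and held 208, 182 and 179 CPM in mixotrophic libraries, against 8.71, 3.16 and 6.62 CPM in normal libraries. It is the sole transcript of its component, and its mean was 30.8-fold higher. No other transcript reached a gap of 4, and 22 of the 62 higher transcripts reached 3.

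For g251 and g14711, which came next, the normal libraries held almost no reads. The level of g251 was 25.4, 24.1 and 25.2 CPM in mixotrophic libraries, against 0.562, 0.789 and 0.630 CPM in normal libraries, with 2 counts in each of these. That of g14711 was 27.2, 23.8 and 26.9 CPM, against 0.843, 0.394 and 0.315 CPM. In both, every normal library was at or below 3 counts, so the fold changes are less certain than the gaps, whose size is held down by the pseudocount of 1 CPM.

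A further group with gaps between 3.39 and 3.72 held between 127 and 174 CPM in mixotrophic libraries. It comprised g3560 and g3558 of component TR12956 c0, g5662 and g5664 of TR21261 c0, g9211 and g5347. Their normal libraries held between 2.25 and 13.8 CPM. The lowest of these was normal replicate 1 of g5347, which held 2.25 CPM while normal replicates 2 and 3 held 11.04 and 10.1 CPM. Of the other transcripts among the 12 largest gaps, g15264 had 39.1, 49.2 and 43.4 CPM in mixotrophic libraries, against 1.40, 1.58 and 2.52 CPM in normal libraries, and g1827 had 33.5, 31.1 and 37.1 CPM, against 1.69, 1.97 and 1.58 CPM. All of these lack a named relative.

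By counts rather than by gap, g5808 stood first among the 62 higher transcripts. It had 1567, 1585 and 1587 CPM in mixotrophic libraries, against 227, 204 and 233 CPM in normal libraries. The 3 values of either condition lay close together, the means differed 7.15-fold, and the standard error of its log2 fold change (2.77 ± 0.08) was the smallest of the set. It was followed by g9027, with 1430.2, 1346 and 1432 CPM in mixotrophic libraries, against 223, 136 and 123 CPM in normal libraries. Among the higher transcripts, g6343 came next, with 979, 1016 and 1021 CPM in mixotrophic libraries, against 226, 81.6 and 90.5 CPM in normal libraries. These 3 transcripts held 39.3%, 39.8% and 40.01% of the counts of the 62 higher transcripts in mixotrophic replicates 1 to 3. Lengths of transcripts were not analysed here, so this order is by counts and not by molecules. For g5808 and g9027 the text was empty, and for g6343 no hits were found.

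In g9027 and g6343 normal replicate 1 lay well above the other normal libraries. The same held for g17149, with 602, 616 and 669.9 CPM in mixotrophic libraries, against 103, 60.3 and 59.3 CPM in normal libraries. It did not hold for g10568, the fifth by counts of the higher transcripts, with 416, 419.8 and 441 CPM in mixotrophic libraries, against 28.4, 48.1 and 44.8 CPM in normal libraries. No hits were found for g17149 and g10568.

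Among the 25 lower transcripts the largest gap was that of g1181, which held 2.70, 3.26 and 1.98 CPM in mixotrophic libraries, against 48.3, 140.4 and 129 CPM in normal libraries. The gap was -3.53, and the mean was 39.9-fold lower in mixotrophic cultures. Next were g1177 and g1175, from the same component. The level of g1177 was 32.2, 26.6 and 31.5 CPM in mixotrophic libraries, against 293, 809 and 759.7 CPM in normal libraries. That of g1175 was 29.7, 29.8 and 30.1 CPM in mixotrophic libraries, against 236, 675 and 641 CPM in normal libraries. In all 3 transcripts normal replicate 1 was the lowest of the normal libraries, by at least 2-fold, and still far above every mixotrophic library.

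Outside that component, g6940 had 28.8, 28.1 and 30.1 CPM in mixotrophic libraries, against 209, 281 and 269 CPM in normal libraries. It is alone in its component, and its 8.74-fold lower mean rested on normal libraries that lay close together. Among the lower transcripts g13862 held the most counts, with 180.0, 173 and 175 CPM in mixotrophic libraries, against 776, 1475 and 1478 CPM in normal libraries. Its mean was 7.06-fold lower in mixotrophic cultures. In g10992 normal replicate 1 was the outlying library in the other direction, with 45.7, 47.4 and 44.8 CPM in mixotrophic libraries, against 719, 235 and 230.4 CPM in normal libraries. None of the 25 has a named relative. For 15 no hits were found and for 10 the text was empty.

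The threshold lay within a continuous range of gaps. Just inside it on the higher side were g6925 (gap 2.01), g52 (2.02) and g901 (2.02), and just outside it were g16043 (1.97), g509 (1.96) and g16654 (1.92). Inside it, g6925 had 25.9, 25.6 and 26.1 CPM in mixotrophic libraries, against 5.62, 1.97 and 2.52 CPM in normal libraries. Outside it, g16654 had 35.8, 35.6 and 35.7 CPM in mixotrophic libraries, against 8.71, 5.92 and 8.51 CPM in normal libraries. On the lower side g2683 (-2.004), g10206 (-2.01) and g17466 (-2.04) were just inside, and g9614 (-1.98), g10907 (-1.95) and g5118 (-1.94) just outside. The last had 111, 93.5 and 85.9 CPM in mixotrophic libraries, against 1133, 428 and 473 CPM in normal libraries.

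The 87 transcripts lay on 87 different contigs of 60 components. In 19 components there were at least 2 of them, 46 transcripts in all, and 23 transcripts were the sole one of their component. At least 1 other transcript came from the same component for 64 of the 87 (73.6%), and for 75.8% in BIN 35 as a whole. Transcripts of a component may share sequence, so their values cannot be taken as independent. Of reads that fit several transcripts, the sources used here say only that counting used default settings. How such reads were divided between transcripts is therefore uncertain. Of the 19 components, 14 held higher transcripts, 4 held lower transcripts and 1 held both.

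Component TR5027 c0 held 4 lower transcripts, g1175, g1177, g1179 and g1181. The fourth, g1179, had 0, 0 and 0.567 CPM in mixotrophic libraries, against 7.58, 22.9 and 23.6 CPM in normal libraries. The shape over the normal libraries was the same in all 4, with replicate 1 lowest. Another transcript of the component, g1174, differed from this shape. It held 47.9, 43.4 and 42.5 CPM in mixotrophic libraries, against 129.8, 89.9 and 86.4 CPM in normal libraries, where replicate 1 was the highest. It also fell, by 1.26 on the log2 scale (SE 0.16, edgeR quasi-likelihood test, Benjamini-Hochberg adjusted p = 0.00431).

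Component TR49908 c0 likewise held 4 lower transcripts. Its g13137 had 10.1, 10.53 and 12.2 CPM in mixotrophic libraries, against 97.2, 189 and 184 CPM in normal libraries. Its g13135 had 11.2, 9.03 and 12.5 CPM in mixotrophic libraries, against 91.3, 175 and 187 CPM in normal libraries. The remaining transcripts, g13138 and g13140, were at 1.00 to 2.02 CPM in mixotrophic libraries, against 12.1 to 39.0 CPM in normal libraries. Normal replicate 1 was again the lowest of the normal libraries in all 4.

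In the other components with several lower transcripts and no higher ones, normal replicate 1 lay closer to the other normal libraries. In TR9400 c0, g2549 had 9.90, 8.02 and 7.94 CPM in mixotrophic libraries, against 79.8, 79.3 and 87.3 CPM in normal libraries, and g2548 had 8.55, 10.3 and 8.79 CPM, against 61.5, 79.7 and 85.4 CPM. In TR32462 c1, g8285 had 1.35, 1.00 and 1.13 CPM in mixotrophic libraries, against 19.4, 13.0 and 16.7 CPM in normal libraries, and g8284 had 1.80, 1.00 and 1.13 CPM, against 17.7, 14.2 and 13.9 CPM. Normal replicate 1 was the lowest normal library in g2548 and the highest in g8285 and g8284.

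Among components of higher transcripts TR8864 c1 held the most, with g2239, g2241, g2243 and g2249. The levels of g2239 and g2243 were 73.3 to 88.3 CPM in mixotrophic libraries, against 6.70 to 12.9 CPM in normal libraries. Those of g2241 and g2249 were 36.0 to 41.2 CPM in mixotrophic libraries, against 3.94 to 5.90 CPM in normal libraries. TR18197 c0 held 3 higher transcripts. Its g4885 had 54.0, 44.9 and 49.0 CPM in mixotrophic libraries, against 2.53, 4.73 and 3.78 CPM in normal libraries. The next, g4887, had 60.7, 52.4 and 55.3 CPM, against 11.2, 9.47 and 11.03 CPM. The last, g4886, had 18.0, 15.05 and 18.4 CPM, against 0, 1.97 and 2.21 CPM.

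The component with both directions was TR9720 c0. Its g2681 had 273, 281 and 279 CPM in mixotrophic libraries, against 10.1, 31.2 and 16.1 CPM in normal libraries, and its g2685 had 116, 112 and 116 CPM, against 3.37, 11.4 and 11.03 CPM. By contrast g2683, from another contig of the same component, had 1.35, 1.25 and 0.567 CPM in mixotrophic libraries, against 8.43, 20.5 and 19.2 CPM in normal libraries. Normal replicate 1 was the lowest normal library in all 3. Each of the 3 contigs also carries a transcript that MapMan places with the peroxisomal aminotransferases of photorespiration. That pathway recovers carbon from the oxygenation product of Rubisco. None of these transcripts had a count. How reads shared between contigs were counted is uncertain, so the lack of a count does not show a lack of expression.

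**Figure D3:**
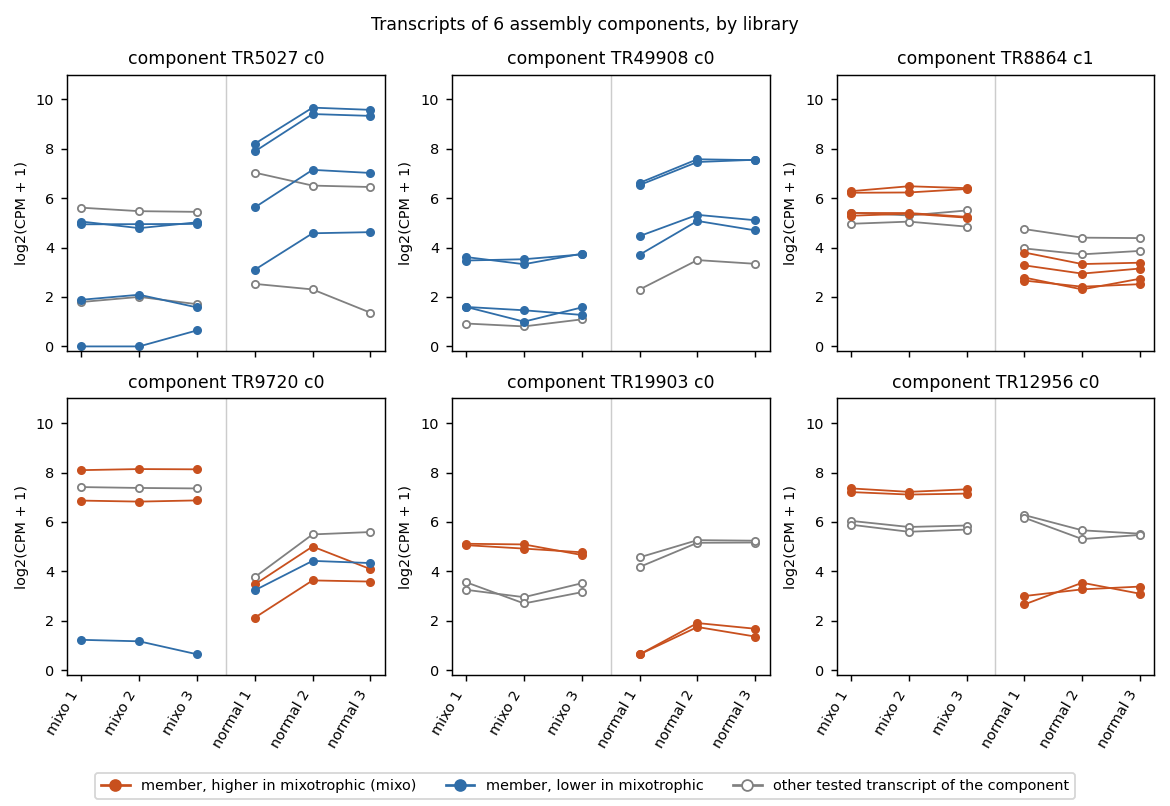
Levels, as log2(CPM + 1), of transcripts of 6 Trinity components in the 3 mixotrophic libraries (left of the line in each panel) and the 3 normal libraries (right of it). Filled points are the transcripts of the set, orange where higher and blue where lower in mixotrophic cultures, and open points are other tested transcripts of the component. In TR5027 c0 and TR49908 c0 the lower transcripts follow the same shape over the normal libraries, and TR9720 c0 holds both directions.

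The other transcripts of these 60 components, 159 in all, were tested where they passed the filter on low counts. Among the 159, 126 are in BIN 35 and are outside the set because their own gap was too small. The counts and medians over them therefore leave out the strongest differences. The remaining 33 carry another BIN and were not chosen by their levels. Of the 159, 95 had no count and 43 passed the filter on low counts. By edgeR's quasi-likelihood test over all 12318 transcripts that passed, 10 of the 43 rose and 16 fell in mixotrophic cultures at a Benjamini-Hochberg adjusted p under 0.05, and 17 did not pass. Over all tested transcripts 13.3% rose and 15.2% fell. Leaving out normal replicate 1 raised the calls over all transcripts to 3476 higher and 3527 lower, against 1633 and 1874 with all libraries, and leaving out any of the other 5 libraries gave 641 to 1063 higher and 668 to 1237 lower. Over the same settings the calls among component mates, that is the other transcripts of these components, numbered 7 to 15 higher and 12 to 22 lower. From replicates 2 and 3 alone, 28.6% and 29% of all transcripts tested were called, and with the replicate number as a block 9.97% and 10.5%. As these transcripts may share sequence with the set, their direction cannot be taken as independent of the choice.

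In components of higher transcripts 21 others were tested, of which 8 rose, 4 fell and 9 did not pass, with a median log2 fold change of 0.46. In components of lower transcripts 21 were tested, of which 1 rose, 12 fell and 8 did not pass, with a median of -2.23. The median over all tested transcripts was -0.04. The transcript that rose beside a lower one was g10207 of TR39268 c1, with 19.1, 20.3 and 17.6 CPM in mixotrophic libraries, against 5.62, 2.76 and 5.99 CPM in normal libraries (adjusted p = 0.00751, edgeR). It lies beside g10206 of the set, which had 1.57, 1.505 and 1.70 CPM in mixotrophic libraries, against 62.9, 9.86 and 12.6 CPM in normal libraries. In TR9720 c0, g2687 rose with the higher transcripts (log2 fold change 2.17 ± 0.49, edgeR adjusted p = 0.0235), a call lost on leaving out any library other than normal replicate 1 (edgeR adjusted p 0.0512 to 0.0875).

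Transcripts predicted on the very contig of a transcript of the set numbered 28, of which 15 had no count and 12 were tested. Of these, 2 rose, 2 fell and 8 did not pass, while of the 31 tested on other contigs 8 rose, 14 fell and 9 did not pass. The difference between these shares was not tested. The 2 that rose were g2240 and g2244 of TR8864 c1, both by less than the transcripts of the set on their contigs, with log2 fold changes of 1.08 ± 0.14 and 0.85 ± 0.14 (adjusted p = 0.00388 and 0.00875, edgeR). Without mixotrophic replicate 3 the edgeR adjusted p of g2244 was 0.0516.

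The 2 that fell lay in TR19903 c0 on the contigs of higher transcripts. There g5201 of the set had 32.4, 29.3 and 26.4 CPM in mixotrophic libraries, against 0.562, 2.37 and 1.58 CPM in normal libraries. On the same contig g5202 had 8.55, 6.77 and 10.49 CPM, against 17.1, 34.7 and 34.99 CPM, and fell by 1.83 on the log2 scale (SE 0.36, edgeR adjusted p = 0.0156), a call lost without any 1 of the mixotrophic libraries or without normal replicate 3 (edgeR adjusted p 0.0523 to 0.0761). The second contig showed the same opposition. Its g5205, of the set, had 33.7, 33.1 and 24.4 CPM in mixotrophic libraries, against 0.562, 2.76 and 2.21 CPM in normal libraries. Beside it g5206 had 10.8, 5.52 and 7.94 CPM, against 22.8, 37.5 and 36.9 CPM, and fell by 2.08 (SE 0.34, edgeR adjusted p = 0.00838). The library kit marks strand, but the counting was at default settings, which do not use it, so reads of overlapping or antisense genes on a contig cannot be told apart.

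**Figure D4:**
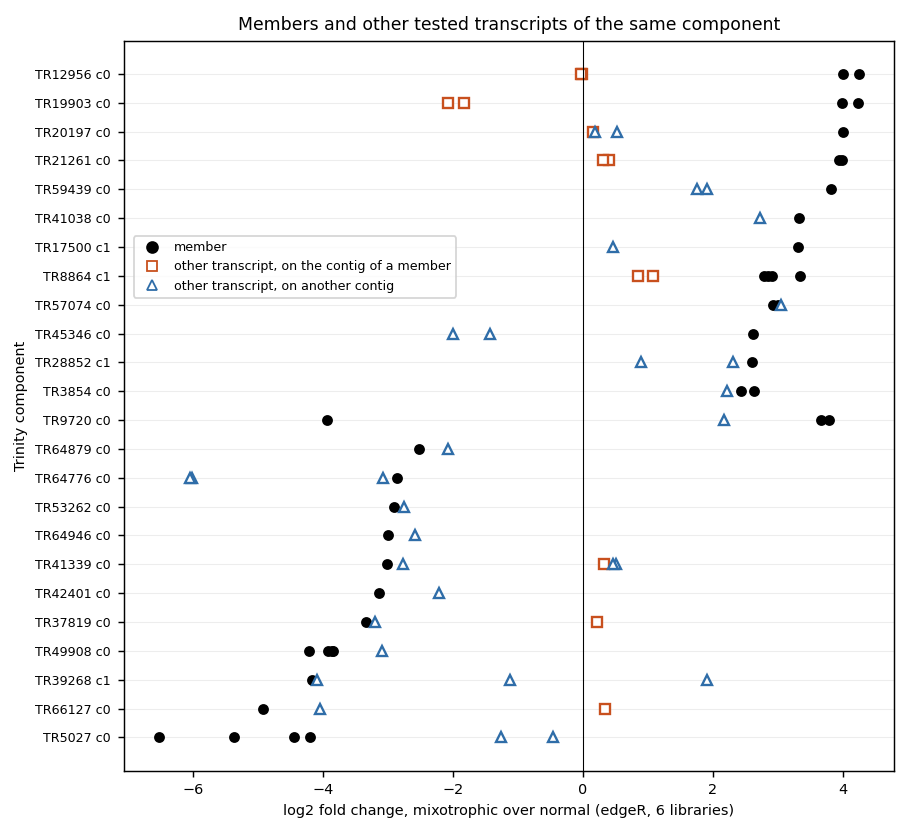
Log2 fold change of mixotrophic over normal from edgeR's fit of 6 libraries, for transcripts of the set (black points) and other tested transcripts of their components, on the contig of a transcript of the set (squares) or on another contig (triangles). In TR19903 c0 the squares lie between -2.08 and -1.83 and the points near 4, and in TR12956 c0 the squares lie near 0.

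Of the 159, 33 carry a BIN with a function, and 12 of these were tested. There were 2 that rose and 5 that fell. The first to rise was g10569, in the BIN of G-protein signalling and resembling an Arabidopsis GTP-binding protein of the chloroplast, in the component of g10568. It had 1532, 1562 and 1566 CPM in mixotrophic libraries, against 182, 247 and 241 CPM in normal libraries, a log2 fold change of 2.72 ± 0.16 (edgeR adjusted p = 0.000598). In both g10569 and g10568 the lowest library was normal replicate 1. The second was g7116, in a BIN of major carbohydrate metabolism, beside g7117 of the set. It had 933, 926 and 922 CPM in mixotrophic libraries, against 681, 372 and 384 CPM in normal libraries (log2 fold change 0.89 ± 0.22, edgeR adjusted p = 0.0318). That call was lost on leaving out any library other than normal replicate 1, at adjusted p between 0.0871 and 0.105. In g7117 the levels were 76.0, 77.7 and 78.0 CPM in mixotrophic libraries, against 12.1, 13.4 and 11.03 CPM in normal libraries.

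The 5 that fell came from a pair of components. In TR64776 c0, 3 transcripts of the BIN of post-translational modification, which resemble protein kinases, fell beside g17303 of the set. The largest difference was that of g17298, with 2.70, 2.01 and 3.12 CPM in mixotrophic libraries, against 61.5, 215 and 217 CPM in normal libraries (log2 fold change -6.06 ± 0.65, edgeR adjusted p = 0.00255). The second was g17294 (log2 fold change -6.02 ± 0.68, adjusted p = 0.0029). The third, g17301, had 15.1, 16.3 and 14.5 CPM, against 93.0, 134 and 142 CPM. The transcript of the set, g17303, had 14.4, 13.5 and 12.8 CPM in mixotrophic libraries, against 74.7, 103 and 104 CPM in normal libraries and has empty text. In TR45346 c0 directions were opposed. There g12021 and g12022, which resemble WD40 repeat proteins, fell by 2.01 and 1.43 on the log2 scale (SE 0.18 each, edgeR adjusted p = 0.0015 and 0.00364). Beside them g12023 of the set had 252, 229 and 234 CPM in mixotrophic libraries, against 47.2, 32.3 and 32.2 CPM in normal libraries.

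Of the 5 that did not pass, 4 share a contig with a transcript of the set. On the contigs of g3558 and g3560, g3559 and g3561 resemble RING or PHD zinc finger proteins. The first had 65.0, 54.7 and 57.0 CPM in mixotrophic libraries, against 76.7, 49.7 and 45.1 CPM in normal libraries (log2 fold change -0.02 ± 0.20, edgeR adjusted p = 0.963), and the ranges of the conditions overlapped. Its neighbour g3558 had 163, 148 and 159 CPM, against 5.34, 10.6 and 7.57 CPM. On the contig of g9615, g9616 resembles a subunit of translation initiation factor eIF3, and had 427, 420.3 and 445 CPM in mixotrophic libraries, against 266, 383 and 412 CPM in normal libraries (edgeR adjusted p = 0.496). In g9615 the levels were 2.47, 1.505 and 0.851 CPM, against 13.5, 17.4 and 17.3 CPM. The fourth, g17914, resembles a peroxisomal ketoacyl-CoA thiolase, an enzyme of fatty acid beta-oxidation (log2 fold change 0.34 ± 0.37, edgeR adjusted p = 0.57), while g17913 on its contig had at most 0.752 CPM in mixotrophic libraries, against 6.74, 19.7 and 26.2 CPM in normal libraries. The fifth, g4647 on another contig than g4648, is a glutamate-tRNA ligase with 378, 368 and 358 CPM in mixotrophic libraries, against 328, 225 and 216 CPM in normal libraries. Its edgeR adjusted p was 0.0762, but 0.0272 by DESeq2 and 5.56e-05 by edgeR without normal replicate 1.

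Summing the counts of all transcripts of a component shows how far the set carries its component. Of the 37 components with several transcripts, some made up of the set only, 12 held counts of the set alone, so that the rule fixed their sums. Of the 25 in which another transcript had a count, the sum passed the same gap in the same direction in 11. TR9720 c0, which holds both directions, was left out of these 11, though its sum had a gap of 2.37. In 22 of these 25 the sums of the conditions did not overlap, and in 3 they did (TR19903 c0, TR37819 c0 and TR41339 c0). In TR19903 c0 the sum averaged 77.7 CPM in mixotrophic and 65.6 CPM in normal libraries, and g5201 and g5205 made up 76.9% of it in mixotrophic but 5.10% in normal libraries. In TR12956 c0 the transcripts of the set made up 72.9% in mixotrophic and 13.0% in normal libraries. In TR5027 c0 they made up 57.1% in mixotrophic and 92.3% in normal libraries, where the sum averaged 1367 CPM, against 110.0 CPM in mixotrophic libraries.

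Levels varied more between normal than between mixotrophic libraries. Normal replicate 1 was above both other normal libraries in 35 of the 87 transcripts and below both in 40. Between replicates 2 and 3 the chi-square ratio over transcripts was 1.68 in normal and 1.47 in mixotrophic cultures. The range over the 3 libraries on the log2(CPM + 1) scale was larger in normal cultures for 79 of the 87 transcripts, with medians of 0.185 in mixotrophic and 0.700 in normal cultures. The medians over the other BIN 35 transcripts that passed the filter were 0.240 and 0.672. The rule favours a small spread, since it sets the lowest library of a condition against the highest of the other. Normal replicate 1 lay at least 2-fold below both other normal libraries in 13 of the 87 transcripts, 7 higher and 6 lower ones, or 14.9% against 9.48% of the other BIN 35 transcripts. Several of the 13 share a component, among them g1175, g1177, g1179 and g1181, so they cannot be taken as independent. It lay at least 2-fold above both in 5 transcripts (5.75%, against 10.4%).

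Where normal replicate 1 was low, the gap of a higher transcript was set by normal replicates 2 and 3. The largest such difference was that of g896 in TR3854 c0, with 126, 109.8 and 116 CPM in mixotrophic libraries, against 5.06, 23.3 and 25.5 CPM in normal libraries. Its component mate g901 had the same shape, with 99.9, 97.5 and 98.7 CPM, against 6.74, 23.3 and 21.8 CPM. Other transcripts of this component are placed by MapMan with the H+-transporting ATPases, and none of those passed the filter on low counts. As the counting of reads shared between contigs is uncertain, this does not show that they were not expressed. In the opposite direction, g10206 and g10992 had their highest normal level in replicate 1, and g16453 had 22.3, 22.8 and 21.8 CPM in mixotrophic libraries, against 4.49, 0 and 1.58 CPM in normal libraries. Why normal replicate 1 differed was not tested.

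**Figure D5:**
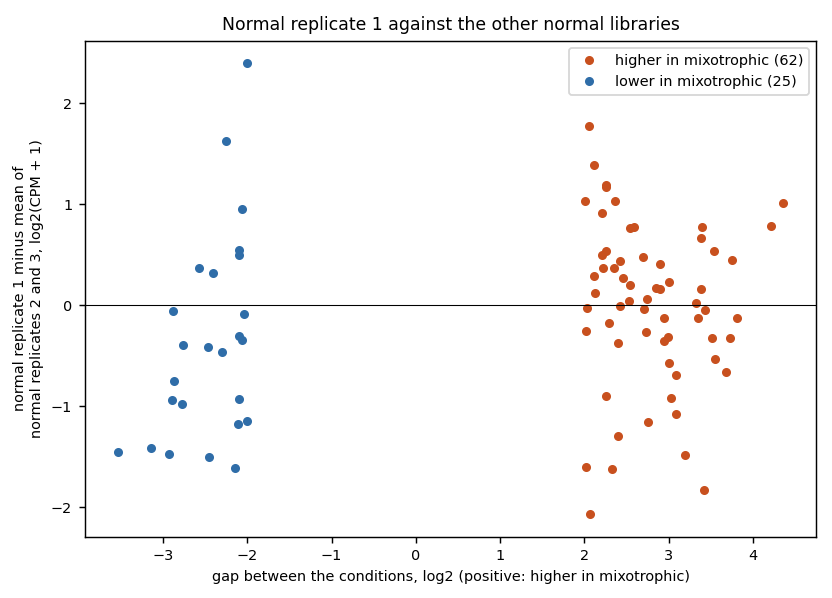
For each of the 87 transcripts, the level of normal replicate 1 minus the mean of normal replicates 2 and 3, in log2(CPM + 1), against the gap between the conditions. Points above 0 had a higher level in normal replicate 1 than the mean of the other normal libraries, and both the 62 higher (orange) and 25 lower (blue) transcripts lie on either side of 0, between -2.07 and 2.39.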

How the data were processed

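RNA-seq libraries of 3 mixotrophic and 3 normal cultures were compared. Following the methods of the study, reads were assembled with Trinity 2.0.6, genes were predicted with AUGUSTUS 2.5.5, classes were assigned with Mercator, and Subread and featureCounts, at their defaults, aligned and counted the reads. The labels name BWA and DESeq2. The deposited counts, made by the authors, are whole reads per transcript, neither scaled nor filtered. Other deposited tables hold the authors' own fold changes, p-values and enrichment tests and were not used. The members and lists were chosen with earlier results of these data known.

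Library totals were 2535461 to 4444858 counts. CPM and gaps were computed from these, with a pseudocount of 1. Components were read from contig names. Transcripts that passed filterByExpr (minimum count 10) were fitted with edgeR 4.0.16 under R 4.3.3 (TMM scaling, two-sided quasi-likelihood test, Benjamini-Hochberg over all transcripts tested), with condition as the sole term. SEs are the log2 fold change over the root of F. The fit was checked on simulated data with the same dispersion in every library, so that check does not cover a library that stands apart. DESeq2 1.42.0 was an alternative. Intervals for counting error were not needed, and a level of 3 counts or fewer was read as near the floor.

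Replicate numbers come from the labels. Deviations from the condition mean of libraries with the same number correlated at 0.703, 0.625 and 0.544 over transcripts. Those of mixotrophic replicate 2 with normal replicate 3 (0.514) and of mixotrophic replicate 3 with normal replicate 2 (0.683) were alike. Deviations from a mean of 3 libraries cancel out, so a replicate 1 that stands apart in both conditions moves replicates 2 and 3 together. The values therefore do not show that the numbers pair the cultures. A fit with the number as a block was an alternative. Which libraries shared a pre-culture is not given in the sources used here. According to the methods of the study, experiments were done in independent triplicate. The paper's list of read totals gives replicates 1 and 2 of each condition only, while its legend states 3 biological replicates. For replicates 2 and 3 the chi-square ratio was 1.47 in mixotrophic and 1.68 in normal cultures. For pairs with replicate 1 it was 5.58 to 54.6. Whether replicates 2 and 3 came from separate cultures was not tested. SEs and adjusted p treat the 3 libraries of a condition as independent.

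Named transcripts are the 12 largest gaps and the 5 highest mean levels per direction, members with a named relative, members of components with several members (partly by range), the 3 on either side of the threshold, and component mates with a functional BIN. Other mates were named after their values were seen. Members that meet none of these are given by counts and ranges. Alternatives were other scalings, pseudocounts and gaps, sums per component, a filter or none, DESeq2, the block, replicates 2 and 3 alone, and leaving out each library. Keyword groups were read from the deposited text, of which 711 cells were removed in the copy used here. Sequences and lengths were not analysed here.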

Additional observations from a re-analysis of the deposited data

How the results depend on the processing

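The number of transcripts depended most on the gap asked for and on normal replicate 1. A gap of at least 1 took 412 (210 higher, 202 lower) and a gap of at least 3 took 24 (22 and 2). A pseudocount of 5 took 51 (40 and 11), and one of 0.5 took 96 (66 and 30). Summed per component, 50 components passed (37 and 13). From replicates 2 and 3 alone the rule took 311 (151 and 160), and leaving out each library in turn gave 88 to 284 (62 to 146 higher, 25 to 138 lower), always with the 87 included. TMM and DESeq2 scaling each gave 86, of which 82 were shared, with 57 and 58 higher. Calls over all transcripts numbered 3549 higher and 3593 lower from replicates 2 and 3 alone, and 641 to 3476 higher and 668 to 3527 lower on leaving out each library. The cause was not tested.

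With the replicate number as a block, 11 component mates rose and 16 fell, and the block moved no count of calls by more than 1.5 times. Reversals occurred in mates that did not pass the test. From replicates 2 and 3 alone the log2 fold changes were -0.025 for g17914, 0.13 for g3559 and 0.14 for g3561. With the block they were 0.00299 for g3559 and 0.00114 for g3561. Leaving out each library in turn gave -0.039 to 0.61 for g17914, -0.16 to 0.18 for g3559, -0.18 to 0.21 for g3561 and -0.019 to 0.34 for g9616. The direction of the 87 was fixed by the rule, so that its being kept under the alternatives says nothing of stability. For 63 named ones, 678 alternative values stayed within the spread of replicates and 15 moved beyond it. The rule also chose large differences in these same libraries, so these counts do not show that the sizes are stable. At this depth levels near 3 counts in a library cannot be ordered.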
